A study of Mus musculus with 24 samples.

Results

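Heat shock chaperones and alpha-B crystallin were followed in cultured mouse fat precursor cells treated with EGCG. The set was defined by gene symbol and holds 10 of the 37310 genes in the deposited tables: the small heat shock proteins Cryab (alpha-B crystallin), Hspb1 and Hspb8, the Hsp70 genes Hspa1a, Hspa1b and Hspa8, the Hsp90 genes Hsp90aa1 and Hsp90ab1, the Hsp40 gene Dnajb1 and the Hsp110 gene Hsph1. The set was drawn up because Cryab rises strongly with EGCG, and the question was whether the other heat shock genes moved with it. The EGCG change of Cryab is therefore given as a description with no test, and Cryab is left out of the counts of genes that passed the test of EGCG.

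Heat shock proteins are chaperones that keep other proteins from misfolding and clumping. In the classical heat shock response, misfolded protein frees the transcription factor Hsf1, which binds heat shock elements (inverted repeats of GAA and TTC) in the promoters of Hsp70, Hsp90, Hsp40, Hsp110 and small heat shock protein genes and raises them together. Small heat shock proteins hold unfolding proteins without using ATP, Hsp70 refolds them with the help of Hsp40 and Hsp110, and Hsp90 matures kinases and hormone receptors. Cryab is best known from the eye lens, from skeletal, heart and smooth muscle and from glia, where it binds filaments such as desmin, and its transcription also responds to signals other than heat.

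C57BL/6 mice aged 6 weeks gave stromal vascular cells from 2 depots, the white fat of the groin (inguinal, WAT) and the brown fat between the shoulder blades (interscapular, BAT), which were grown to near confluence and induced to become adipocytes. All groups received an induction medium with insulin, dexamethasone and 3-isobutyl-methylxanthine for 4 days, and those taken on day 8 then had 4 days of a medium with insulin and T3 (a thyroid hormone). Epigallocatechin gallate (EGCG), the main catechin of green tea, or its solvent DMSO was in the medium, and the labels name the solvent groups control and give no dose of EGCG. There were 8 groups of 3 libraries: WAT and BAT cells, each with control or EGCG, each on day 4 (D4) or day 8 (D8). A stromal vascular fraction is a mixture of adipocyte precursors with endothelial, blood and nerve sheath cells, and the labels do not say whether the libraries of a group came from separate mice or cultures. The p-values therefore measure only the spread between these libraries, which may be technical.

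Levels are in FPKM, the reads on a gene scaled by its length and by the reads on all genes of the library, so genes can be set beside each other on this scale. The libraries of replicates 1 and 2 came in 1 table and held 39452696 to 52893848 reads on genes. Those of replicate 3 came in a second, separately scaled table and held 16392420 to 41675643. Changes are differences of log2(FPKM + 1) between the means of replicates 1 and 2, with the standard error (SE) from limma, and "called" means an adjusted p under 0.05 over 14095 genes tested. Replicate 3 is given beside them for its direction. In the WAT D8 EGCG library of replicate 3, 5 genes took 61.01% of the reads, against 3.938% to 10.48% in replicates 1 and 2. Its deposited FPKM values of other genes are lowered by that, and a rescaled value (multiplied by 2.56) is given and named as such. The median change of all genes with EGCG was above 0, at 0.09 in WAT D4, 0.17 in WAT D8, 0.03 in BAT D4 and 0.17 in BAT D8. Scaling by the median ratio between libraries lowered these medians by 0.11, 0.16, 0.03 and 0.15. Among genes called, that scaling took the part higher with EGCG from 64.1% to 44.7% in WAT D4, from 70.3% to 51.2% in WAT D8 and from 64.0% to 51.8% in BAT D8, so changes near these medians are read with care.

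The labelled cell types were checked on marker genes. The summed level of 10 adipocyte markers, with Adipoq (adiponectin) and Fabp4 (a fatty acid carrier) among them, lay between 3738 and 11311 FPKM in the control libraries. It was 475 to 1609 FPKM in the EGCG libraries of replicates 1 and 2 and in those of replicate 3 other than the WAT D8 library, which stood at 233 FPKM as deposited and 598 FPKM rescaled. All 10 adipocyte markers were called lower with EGCG in every one of the 4 comparisons. Zic1, a transcription factor of brown fat, was at 10.6 FPKM in BAT D4 control against 0.0454 FPKM in WAT D4 control, and the heat gene Ucp1 was at 6.56 FPKM in BAT D8 control and at 0 FPKM in WAT D8 control. The brown fat genes Lhx8 and Prdm16 were called higher in BAT controls on both days. Ebf2 and Ucp1 were called so on day 8 and not on day 4 (Ebf2 17.1 against 15.1 FPKM, Ucp1 0.333 against 0.117 FPKM). Lhx8 was at 18.4 FPKM in WAT D4 control and at 10.3 FPKM in BAT D8 control. The white fat genes Hoxc8, Hoxc9 and Hoxc10 were called lower in BAT controls on both days, and Tcf21 was not tested. Whether a gene was lower because fewer cells of a type were present or because each cell held less of its RNA cannot be told apart in bulk RNA.

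In the GENCODE vM1 annotation of the genome build NCBIM37 (mm9), all 10 genes are protein coding. Cryab lies on the plus strand of chromosome 9 from 50560863 to 50564738, and Hspa8 on the plus strand of the same chromosome from 40609067 to 40613283. Chromosome 5 holds Hspb1 (136363789 to 136365433, plus strand), Hspb8 (116858500 to 116872873, minus strand) and Hsph1 (150416862 to 150438951, minus strand). On chromosome 17 Hspa1b (35093381 to 35096183) and Hspa1a (35106144 to 35109069) are neighbours on the minus strand, and Hsp90ab1 (45704724 to 45710220) is on the minus strand of this chromosome too. Hsp90aa1 lies on the minus strand of chromosome 12 from 111928815 to 111940938 and Dnajb1 on the plus strand of chromosome 8 from 86132074 to 86135801. Gm20481, annotated as protein coding on the other strand, overlaps Hspa1a, and 3 Snord14 genes, which make small nucleolar RNAs, lie within Hspa8. Use of strand in counting is not given in the sources used here, so reads of Hspa1a and Gm20481 cannot be told apart. The 3 Snord14 genes are on the same strand as Hspa8, so strand would not separate their reads in any case.

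Several of these genes have near copies in the genome. The share of 50-base windows of the transcript that occurred at more than 1 place in the mm9 genome was 74.8% for Hspa8, 68.4% for Hsp90aa1, 62.3% for Hspa1b, 61.0% for Hspa1a and 57.7% for Hspb1. It was 7.49% for Hsp90ab1, 0.768% for Dnajb1 and 0% for Cryab, Hspb8 and Hsph1. Of the 2877 windows of Hspa1a, 1710 also occur in Hspa1b, so reads may be split between this pair in a way that the sources used here do not describe. Levels of the 5 genes with the high shares are uncertain to that extent, while those of Cryab and Hspb8 are not touched by it. For Hsph1 and Hspa8 the transcript searched had 3802 and 2394 bases, against 4764 and 3158 bases in the gene length used for FPKM. The rest of both genes was not searched.

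The heat shock element is what a shared Hsf1 response would use, and the DNA upstream of 4 genes is shown because their EGCG changes differed although each held such an element. The sequences are the 250 bases before the transcription start, read 5′ to 3′ on the strand of the gene, from RefSeq on the build GRCm38.p6. Elements of 2 facing units, GAANNTTC or TTCNNGAA (each reads the same on both strands), are in capitals. Hspb1 is at chr5:135887669-135887918 on the plus strand, Hsph1 at chr5:149636337-149636586 on the minus strand, Hspa1a at chr17:34972157-34972406 on the minus strand and Hspa1b at chr17:34959239-34959488 on the minus strand.
Hspb1: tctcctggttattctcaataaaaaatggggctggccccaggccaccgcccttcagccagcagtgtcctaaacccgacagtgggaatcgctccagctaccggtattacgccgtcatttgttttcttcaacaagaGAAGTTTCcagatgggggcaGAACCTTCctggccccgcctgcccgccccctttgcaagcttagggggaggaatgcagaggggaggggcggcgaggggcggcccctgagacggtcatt
Hsph1: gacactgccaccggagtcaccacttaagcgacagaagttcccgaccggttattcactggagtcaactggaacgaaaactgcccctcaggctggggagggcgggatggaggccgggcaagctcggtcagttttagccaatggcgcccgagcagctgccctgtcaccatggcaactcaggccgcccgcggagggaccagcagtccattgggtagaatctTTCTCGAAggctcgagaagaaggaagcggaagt
Hspa1a: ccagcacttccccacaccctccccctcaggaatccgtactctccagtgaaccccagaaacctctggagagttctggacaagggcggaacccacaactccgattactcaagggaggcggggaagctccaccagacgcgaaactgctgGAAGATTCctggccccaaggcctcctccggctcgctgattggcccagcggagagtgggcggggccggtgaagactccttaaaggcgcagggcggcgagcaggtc
Hspa1b: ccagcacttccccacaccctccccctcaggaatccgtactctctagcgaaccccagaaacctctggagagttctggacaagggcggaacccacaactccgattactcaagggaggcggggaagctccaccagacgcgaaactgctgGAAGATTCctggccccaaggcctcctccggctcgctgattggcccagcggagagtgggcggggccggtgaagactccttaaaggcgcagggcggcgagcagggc

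Of the 10 genes, 6 were in the RefSeq promoter table (Hspb1, Hspb8, Hspa1a, Hspa1b, Dnajb1 and Hsph1), and Cryab, Hspa8, Hsp90aa1 and Hsp90ab1 were missing from it. A 2-unit element stood in 4 of the 6 genes, and 12.8% of all 32851 promoter windows in the table held one in the same 250 bases. Dnajb1 and Hsph1 had 2 windows each, so the first is a count of genes and the second a share of windows. Hspb1 held a pair of elements whose first bases were 117 and 97 bases before the start, and Hspa1a and Hspa1b held the same element at 104 bases. That of Hsph1 began 33 bases before the start of the window shown and 54 bases before the start of its other window. None of the 6 held 3 units in a row in these windows (GAANNTTC with a further unit NNGAA after it, on either strand), which 0.466% of all windows did. The upstream bases of Hspa1a and Hspa1b differed at 3 positions. A match describes letters only and says nothing about binding.

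With EGCG the 9 genes other than Cryab did not move in 1 direction on day 4 and mostly rose on day 8. In WAT D4, 5 of the 9 were called higher and 3 lower, where 53.7% of all genes tested were called (34.4% higher and 19.3% lower). In BAT D4, 5 were called higher and 1 lower, against a background of 48.5% called (27.9% higher and 20.6% lower). In WAT D8, 7 were called higher and 0 lower, with 63.6% of all genes called (44.7% higher and 18.9% lower). The 9 genes of BAT D8 gave 8 called higher and 0 lower, with 72.6% of all genes called (46.5% higher and 26.1% lower). With median-ratio scaling the counts were 3 higher and 3 lower in WAT D4, 3 and 2 in BAT D4, 6 and 0 in WAT D8, and 7 and 0 in BAT D8. Among all genes, that scaling called 3343 higher and 4131 lower in WAT D4, and 3443 and 3272 in BAT D4. The day 8 counts of all genes were 4087 and 3888 in WAT, and 5100 and 4741 in BAT. Without that scaling the median change of the 9 genes was 0.29, 0.28, 0.50 and 0.55 in this order, against medians of all genes of 0.09, 0.03, 0.17 and 0.17. Hsp90aa1, Dnajb1 and Hsph1 were called higher in all 4 comparisons, and Hspa8 was called lower in both depots on day 4 and higher in both on day 8. The call of Hsph1 in BAT D4 was lost when any 1 of the 4 libraries was left out.

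**Figure D1:**
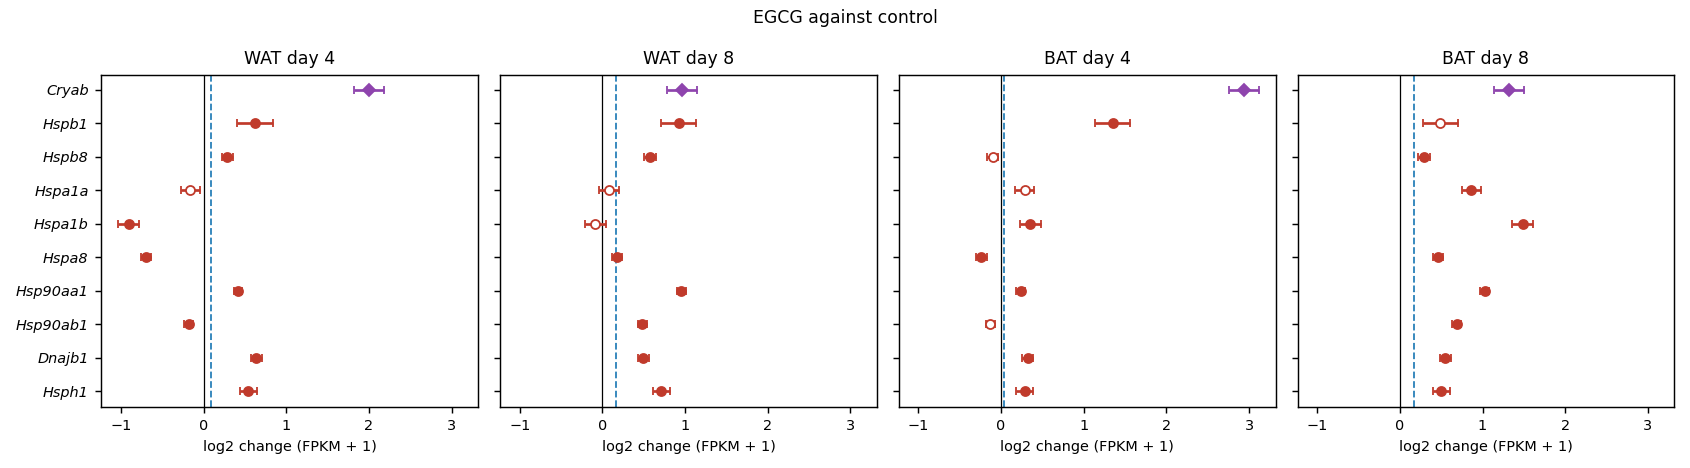
Change with EGCG, as the difference of log2(FPKM + 1) ± SE from replicates 1 and 2, for the 10 genes in the 4 comparisons. Filled circles passed the test and open circles did not, the purple diamond is Cryab with no test, and the dashed line is the median of all genes. Cryab lies at 2.93 in BAT D4 while Hspa8 lies at -0.24 in the same libraries, and all 10 genes lie to the right of 0 in BAT D8.

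On day 4 the change of Cryab was the largest of the 10 genes, and on day 8 other genes came near it (Hsp90aa1 and Hspb1 in WAT) or passed it (Hspa1b in BAT). In WAT D4 its level was 15.4, 17.4 and 18.2 FPKM in replicates 1 to 3 of the control and 72.9, 64.7 and 90.2 FPKM with EGCG. The BAT D4 levels were 16.4, 19.8 and 21.4 FPKM in the control and 154, 135 and 135 FPKM with EGCG. On D8 the BAT cells had 114, 121 and 139 FPKM in the control and 277, 312 and 335 FPKM with EGCG. In each of these 3 comparisons every EGCG library lay above every control library.

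The WAT D8 control libraries of Cryab spread from 71.7 over 119.6 to 123 FPKM, and replicate 1 stood apart. With EGCG they were at 182 and 179.7 FPKM in replicates 1 and 2, and at 84.9 FPKM in replicate 3 as deposited, which is 218 FPKM after rescaling. The EGCG libraries lay above the controls after rescaling, and overlapped them as deposited.

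The ratio of mean Cryab levels with EGCG to those of the control was 4.19 in WAT D4, 7.99 in BAT D4, 1.89 in WAT D8 and 2.51 in BAT D8. As log2 changes these were 2.00 ± 0.18, 2.93 ± 0.18, 0.96 ± 0.18 and 1.32 ± 0.18 (SE, 2 libraries a group). Without replicate 1 of the WAT D8 control the change there was 0.59. The day 8 log2 change less the day 4 log2 change was -1.04 ± 0.26 in WAT and -1.62 ± 0.26 in BAT, again as a description. The lowest group mean of Cryab was that of WAT D4 control at 16.4 FPKM, followed by BAT D4 control at 18.1, WAT D4 EGCG at 68.8, WAT D8 control at 95.6, BAT D8 control at 118, BAT D4 EGCG at 145, WAT D8 EGCG at 181 and BAT D8 EGCG at 295 FPKM. The first pair of groups, WAT D4 EGCG with WAT D8 control, WAT D8 control with BAT D8 control, and BAT D8 control with BAT D4 EGCG lay within the spread of their 3 libraries, so their order is not resolved. The steps from BAT D4 control to WAT D4 EGCG, from BAT D4 EGCG to WAT D8 EGCG (rescaled) and from there to BAT D8 EGCG had no overlap of libraries.

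**Figure D2:**
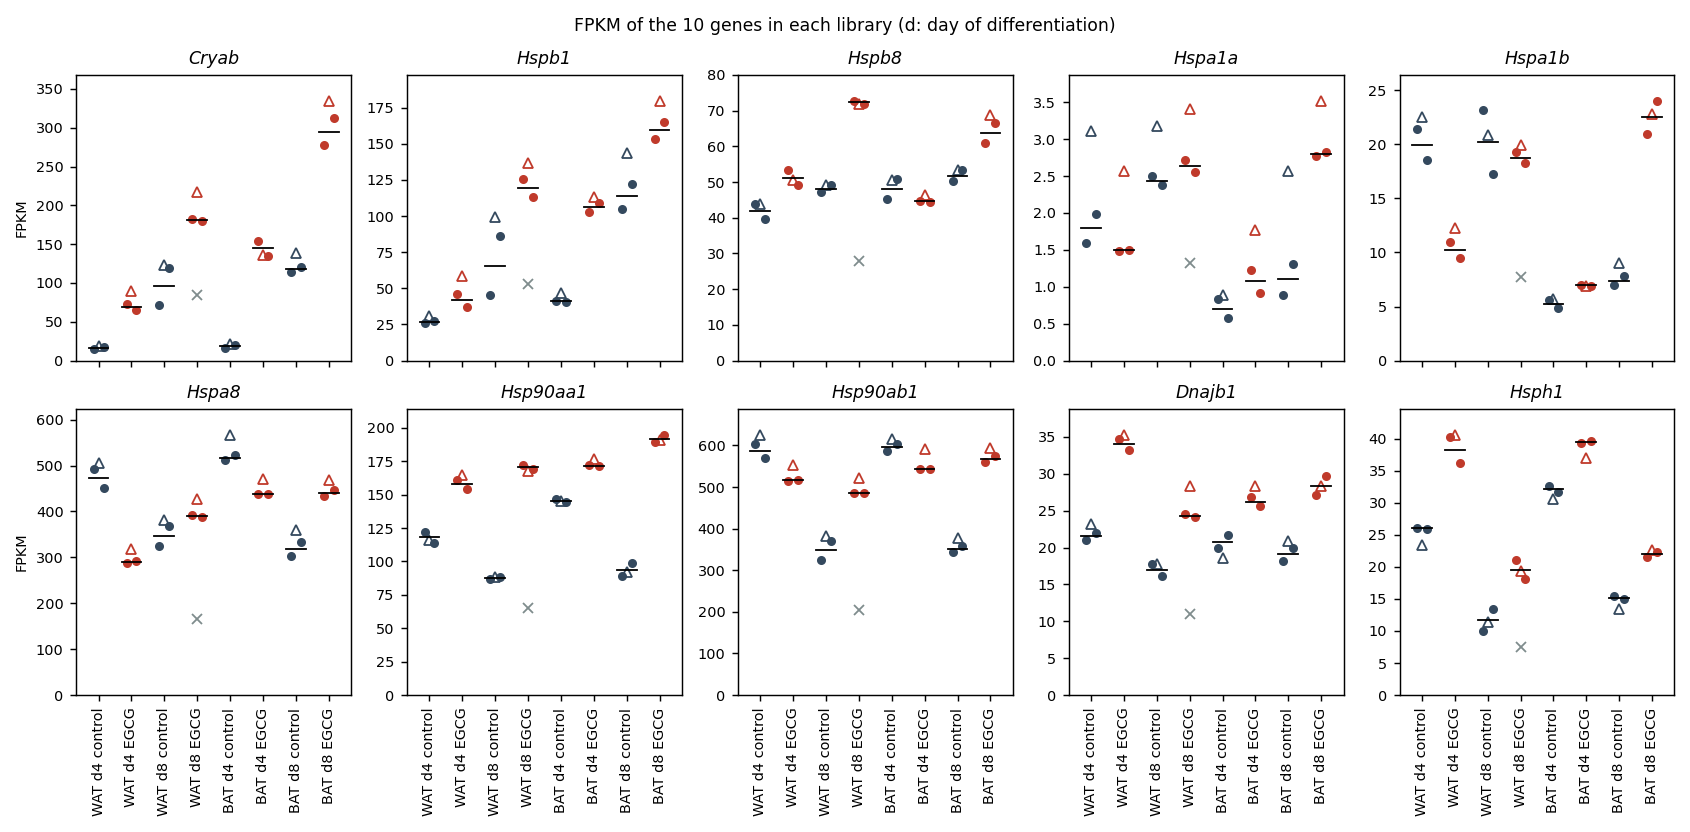
FPKM of each of the 10 genes in each library, on an axis of its own per gene that starts at 0. Circles are replicates 1 and 2, triangles replicate 3 (rescaled in WAT D8 EGCG, with the deposited value as a grey cross), the line is the mean of replicates 1 and 2, red is EGCG and dark blue the control. In BAT D8 the red points of all 10 genes lie above the dark blue points, and in WAT D4 those of Hspa1b and Hspa8 lie below them.

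Hspb1, the small heat shock protein that guards actin filaments, was the member whose levels followed Cryab most closely (Pearson r = 0.92 over the 16 libraries of replicates 1 and 2, which share the 8 groups and their depths). In BAT D4 it was at 41.4, 40.7 and 46.5 FPKM in the control and at 103, 109 and 113 FPKM with EGCG, with no overlap. The change of 1.35 ± 0.21 passed the test (limma adjusted p = 0.00027). It rose less in WAT D4, from 26.1, 27.2 and 30.7 FPKM to 46.0, 37.4 and 58.2 FPKM, a change of 0.62 ± 0.21 (adjusted p = 0.028) that lost its call without either control replicate or EGCG replicate 1, and in the fit with median-ratio scaling. In WAT D8 the controls were at 45.2, 86.3 and 99.3 FPKM and the EGCG libraries at 126, 113 and, rescaled, 136 FPKM (53.2 deposited). The change there was 0.92 ± 0.21 (adjusted p = 0.0025), and 0.46 without control replicate 1, the same library that stood apart for Cryab. In BAT D8 the control libraries at 105, 122 and 143 FPKM lay below the EGCG libraries at 154, 165 and 180.0 FPKM, but the change of 0.49 ± 0.21 did not pass (adjusted p = 0.058), though it was called after quantile normalization.

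Hspb8, which works with Bag3 to send misfolded proteins to autophagy, changed less with EGCG than Cryab in every comparison. Levels of Hspb8 lay between 39.7 and 53.4 FPKM in all 12 control libraries. It was called higher with EGCG in WAT D4 (0.29 ± 0.07), WAT D8 (0.58 ± 0.07) and BAT D8 (0.29 ± 0.07). In BAT D4, where Cryab changed most, the EGCG libraries were at 44.7, 44.5 and 46.4 FPKM and the controls at 45.3, 50.9 and 50.5 FPKM, and the change of -0.10 ± 0.07 did not pass the test. Relative to the median of all genes the change in BAT D8 was 0.12, and its calls in BAT D8 and WAT D4 were lost with median-ratio scaling.

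Of the other small heat shock protein genes, Hspb2, Hspb6 and Hspb7 reached the filter on low levels, Hspb3 and Hspb9 stayed at or below 0.509 FPKM in every group mean and Cryaa (alpha-A crystallin) was at 0 in all 8. Hspb2 is the head-to-head neighbour of Cryab, on the minus strand of chromosome 9 from 50559177 to 50560459, 403 bases away. It was called higher with EGCG in all 4 comparisons, from 0.725 to 1.69 FPKM in WAT D4 (0.64 ± 0.08), from 0.72 to 3.77 FPKM in BAT D4 (1.48 ± 0.08), from 7.93 to 9.81 FPKM in WAT D8 (0.28 ± 0.08) and from 9.46 to 11.9 FPKM in BAT D8 (0.30 ± 0.08). The calls of Hspb2 on day 8 were lost with median-ratio scaling and with quantile normalization. Hspb6 (Hsp20) went the other way on day 8 and was called lower in WAT (-0.41 ± 0.13) and in BAT (-1.27 ± 0.13), where it dropped from 12.6 to 4.66 FPKM. Hspb7, a small heat shock protein of heart and muscle, was called higher on day 4 in both depots and lower in BAT D8.

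The inducible Hsp70 genes, the classical readout of heat shock, were not called higher with EGCG in WAT. In BAT every EGCG library of Hspa1a and Hspa1b lay above every control library on both days. Hspa1a lay between 0.577 and 3.52 FPKM in all 24 libraries and was called in BAT D8 only, from 0.889, 1.31 and 2.57 FPKM in the control to 2.77, 2.83 and 3.52 FPKM with EGCG (0.86 ± 0.12). In BAT D4 it was at 0.833, 0.577 and 0.895 FPKM in the control and at 1.23, 0.922 and 1.77 FPKM with EGCG. This BAT D4 change of Hspa1a did not pass the test. Its near copy Hspa1b fell in WAT D4, from 21.4, 18.5 and 22.5 FPKM to 10.9, 9.46 and 12.2 FPKM. That change was -0.90 ± 0.13 (limma adjusted p = 9.8e-05), in the comparison in which mean Cryab was 4.19-fold higher. The groups of WAT D8 overlapped, with controls at 23.2, 17.3 and 20.9 FPKM and EGCG libraries at 19.3, 18.3 and, rescaled, 19.9 FPKM (7.77 deposited). In BAT D4 Hspa1b went from 5.60, 4.87 and 5.69 FPKM to 6.97, 6.92 and 6.90 FPKM, a change of 0.35 ± 0.13 (adjusted p = 0.037) whose call was lost without control replicate 2 or either EGCG replicate and with either scaling. In BAT D8 it rose from 6.95, 7.85 and 9.06 FPKM to 21.0, 24.1 and 22.8 FPKM (1.49 ± 0.13, adjusted p = 5.2e-07), which put it in the range of the WAT control libraries (17.3 to 23.2 FPKM) or just above it. Hspa1a and Hspa1b were correlated over the 16 libraries (r = 0.93) and share most of their sequence.

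Hspa8 (Hsc70), the constitutive Hsp70 and with Hsp90ab1 the most abundant of the 10 genes, fell on day 4 and rose on day 8. In WAT D4 it went from 492, 452 and 506 FPKM in the control to 289, 293 and 319 FPKM with EGCG (-0.70 ± 0.06, limma adjusted p = 3.8e-06). It went in BAT D4 from 512, 523 and 566 FPKM to 438, 438 and 469.8 FPKM (-0.24 ± 0.06, adjusted p = 0.009; not called without control replicate 2). It rose in BAT D8 from 304, 334 and 359 FPKM to 434, 446 and 468 FPKM (0.46 ± 0.06, adjusted p = 3.8e-05). In none of these 3 comparisons did the libraries overlap. The change of 0.18 ± 0.06 in WAT D8 (adjusted p = 0.032) exceeded the median of all genes by 0.01, turned to -0.03 with median-ratio scaling and lost its call without either EGCG replicate or control replicate 1 (0.08 without the latter).

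Of the Hsp90 pair, the stress-responsive gene Hsp90aa1 was called higher in every comparison and the constitutive gene Hsp90ab1 was not. Hsp90aa1 rose in WAT D8 from 86.7, 88.6 and 88.1 FPKM to 172, 169 and, rescaled, 168 FPKM (0.95 ± 0.05, limma adjusted p = 2.9e-08; 65.3 FPKM as deposited). It rose in BAT D8 from 88.8, 99.0 and 92.0 FPKM to 189, 195 and 191 FPKM (1.03 ± 0.05, adjusted p = 6e-09). On day 4 the rise was smaller, at 0.41 ± 0.05 in WAT and 0.24 ± 0.05 in BAT. Hsp90ab1 fell slightly in WAT D4, from 602, 569.8 and 625 FPKM to 515, 518 and 553 FPKM (-0.18 ± 0.06), a call lost without control replicate 1 or either EGCG replicate, and did not pass the test in BAT D4 (-0.13 ± 0.06, adjusted p = 0.082). It rose on day 8, by 0.48 ± 0.06 in WAT and 0.69 ± 0.06 in BAT. Control levels of Hsp90ab1 were 569.8 to 625 FPKM on day 4 and 324 to 382 FPKM on day 8, so with EGCG its day 8 level (485 to 593 FPKM with the rescaled library, which was at 204 FPKM as deposited) lay nearer to that of day 4.

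The Hsp70 partners Dnajb1 and Hsph1 were called higher in each comparison. Dnajb1, which delivers clients to Hsp70, went in WAT D4 from 21.1, 22.0 and 23.1 FPKM to 34.8, 33.3 and 35.3 FPKM (0.64 ± 0.07, limma adjusted p = 9e-06). Its change was 0.50 ± 0.07 in WAT D8, 0.32 ± 0.07 in BAT D4 and 0.55 ± 0.07 in BAT D8. Hsph1, which exchanges the nucleotide of Hsp70, went in WAT D4 from 26.1, 26.0 and 23.4 FPKM to 40.3, 36.3 and 40.6 FPKM (0.54 ± 0.10, adjusted p = 0.0011). Its change was 0.71 ± 0.10 in WAT D8, 0.29 ± 0.10 in BAT D4 and 0.50 ± 0.10 in BAT D8. For both genes every EGCG library lay above every control library in all 4 comparisons once the WAT D8 library was rescaled.

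Counted over 3 replicates with that library rescaled, the EGCG libraries of the 10 genes (Cryab, chosen for this change, included) lay wholly above the controls for 6 genes and wholly below for 3 in WAT D4, above for 8 in WAT D8, above for 7 and below for 1 in BAT D4, and above for 10 in BAT D8. Of all genes tested, the same was so for 33.6% (above) and 19.9% (below) in WAT D4, 41.5% and 17.7% in WAT D8, 30.4% and 20.2% in BAT D4, and 43.6% and 24.1% in BAT D8. Cryab lay above in all 4 comparisons, so each count of genes above holds 1 gene that was chosen for its rise. The counts of genes above are therefore a description beside these shares. With the library as deposited, all 10 genes overlapped in WAT D8, where 2.53% of all genes lay wholly above and 19.9% wholly below. In the other 3 comparisons replicate 3 had the direction of every call, at 8 of 8, 6 of 6 and 8 of 8 genes. In WAT D8 it had that direction for 0 of 7 called genes as deposited and for 7 of 7 rescaled.

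The wider set of cytosolic heat shock genes was mixed on day 4 and higher on day 8. It held 20 further Hsf1 targets and co-chaperones, of which 19 were tested (Hspa1l stayed at or below 0.424 FPKM). In WAT D4, 4 were called higher and 5 lower, with a median change of -0.02, and in BAT D4, 5 were called higher and 5 lower, with a median of 0.04. On day 8, 18 were called higher in WAT (median 0.55) and 17 in BAT (median 0.43), with 0 called lower in either. Among all genes tested, 34.4% were called higher and 19.3% lower in WAT D4, and 27.9% and 20.6% in BAT D4. The day 8 shares were 44.7% and 18.9% in WAT, and 46.5% and 26.1% in BAT. Medians of all genes were 0.09 in WAT D4, 0.03 in BAT D4 and 0.17 on day 8 in either depot. The EGCG change itself was called higher on day 8 than on day 4 for 17 of the 19 in WAT and 15 of the 19 in BAT, where 29.7% and 34.7% of all genes tested were called higher and 49.4% and 55.4% in either direction. With median-ratio scaling the counts of the 19 genes with EGCG became 2 higher and 11 lower in WAT D4, 4 and 6 in BAT D4, 16 and 1 in WAT D8, and 13 and 2 in BAT D8. Among all genes, that scaling called 3343 higher and 4131 lower in WAT D4, and 3443 and 3272 in BAT D4. The day 8 counts of all genes were 4087 and 3888 in WAT, and 5100 and 4741 in BAT. Bag3, the partner of Hspb8 and a well-known Hsf1 target, was called higher with Dnajb6 in all 4 comparisons, and its change was 0.30 ± 0.05 in WAT D4, 0.43 ± 0.05 in WAT D8, 0.41 ± 0.05 in BAT D4 and 0.80 ± 0.05 in BAT D8. Dnaja1 (Hsp40), Stip1 (which links Hsp70 to Hsp90), Cacybp and Fkbp4 were among the genes called lower in a day 4 comparison, and Hspa4, a relative of Hsph1, was called higher in WAT D8 (0.71 ± 0.04) and BAT D8 (0.99 ± 0.04) and not on day 4. Hsf1 itself was not called on day 4 and was higher on day 8, from 15.6 to 21.4 FPKM in WAT (0.43 ± 0.06) and from 13.6 to 25.7 FPKM in BAT (0.87 ± 0.06).

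Lists of chaperones with other clients or in other compartments were counted in the same way. For all genes tested, the shares called higher and lower were 34.4% and 19.3% in WAT D4, and 27.9% and 20.6% in BAT D4. Those of day 8 were 44.7% and 18.9% in WAT, and 46.5% and 26.1% in BAT. Medians of all genes were 0.09 in WAT D4, 0.03 in BAT D4 and 0.17 on day 8 in either depot. Median-ratio scaling called 4087 genes higher and 3888 lower in WAT D8, and 5100 and 4741 in BAT D8. Of the 8 subunits of the chaperonin CCT, which folds actin and tubulin, 5 were called lower and 1 higher in WAT D4 (median -0.20) and 6 lower in BAT D4 (median -0.27), while 7 were called higher in WAT D8 (median 0.46) and 8 in BAT D8 (median 0.60). Of 12 chaperones of the endoplasmic reticulum, 8 were called lower in WAT D4 and 7 in BAT D4, with 1 higher in each. Hspa5 (BiP), the Hsp70 of that compartment, changed by -0.85 ± 0.09 in WAT D4 and -0.65 ± 0.09 in BAT D4. On day 8, 10 of the 12 were called higher in WAT with 0 lower, and 8 higher with 1 lower in BAT, which median-ratio scaling made 6 and 3. Of the 8 mitochondrial chaperones and proteases, 6 were called lower in WAT D4 (median -0.27), 7 in BAT D4 (median -0.53) and 7 in BAT D8 (median -0.91). In WAT D8, 4 of them were called higher and 2 lower, which median-ratio scaling turned to 1 higher and 4 lower. Hspd1 (Hsp60) changed by -0.77 in WAT D4 and by -0.92 in BAT D4, and Hspa9 (mortalin) by -1.08 in BAT D8. All 10 adipocyte markers were called lower in the same 4 comparisons, and their part in these values was not tested.

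**Figure D3:**
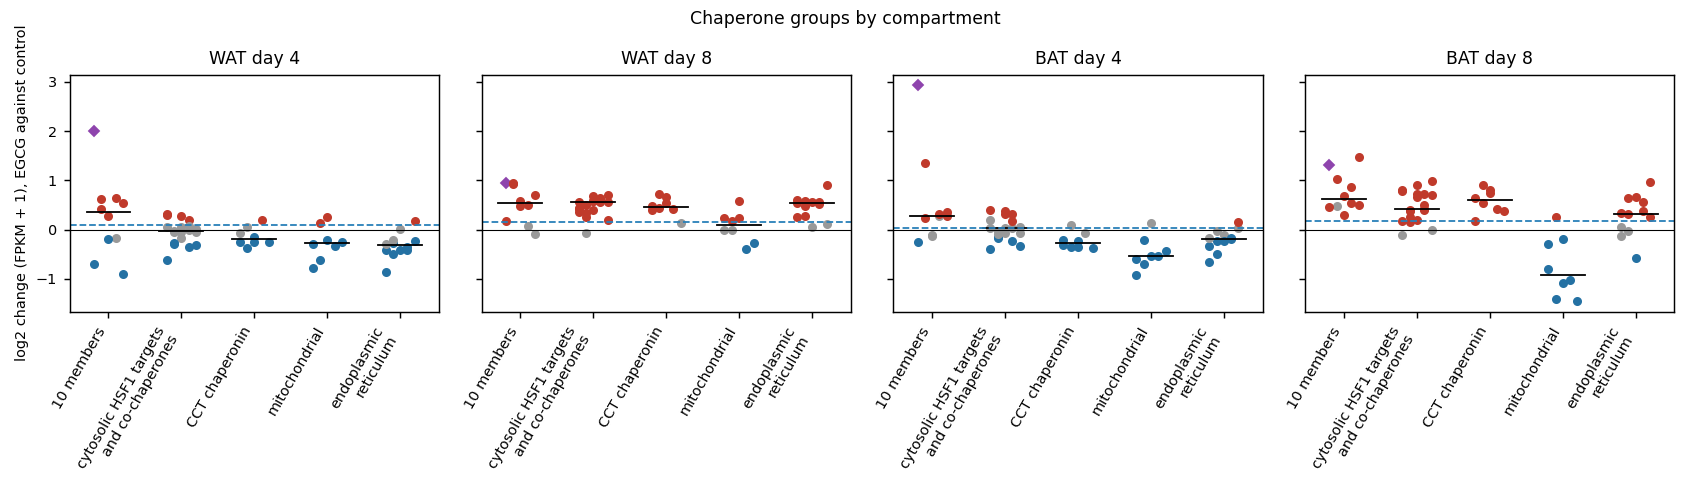
Change with EGCG, as the difference of log2(FPKM + 1), of each tested gene of the chaperone groups in the 4 comparisons. Points are genes, the black line is the median of the points of a group, the purple diamond is Cryab and the blue dashed line is the median of all genes. Medians of the CCT group lie at -0.20 and -0.27 on day 4 and at 0.46 and 0.60 on day 8, and that of the mitochondrial group lies at -0.91 in BAT D8.

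Cryab is also a gene of muscle and glia, so markers of other cells were set beside it. Among all genes tested, 34.4% were called higher and 19.3% lower in WAT D4, and 27.9% and 20.6% in BAT D4. The day 8 shares were 44.7% and 18.9% in WAT, and 46.5% and 26.1% in BAT. The summed level of 9 smooth muscle and myofibroblast markers (Acta2, Tagln and Myh11 among them) was higher with EGCG in BAT and lower in WAT D4. In BAT D4 it was 117 to 159 FPKM in the control and 772 to 955 FPKM with EGCG, and 8 of the 9 genes were called higher. In WAT D4 it was 194 to 220 FPKM in the control and 105 to 118 FPKM with EGCG, and 7 of the 9 were called lower and 1 higher, while Cryab was 4.19-fold higher. In WAT D8 it went from 392 to 534 FPKM to 715 to 911 FPKM with the rescaled library (355 FPKM deposited; 2 called higher and 4 lower), and in BAT D8 from 498 to 674 FPKM to 1460 to 1857 FPKM (6 higher and 3 lower). Acta2, the actin of smooth muscle and myofibroblasts, changed by -1.19 in WAT D4 and by 2.87 in BAT D4.

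The sum of 6 Schwann cell markers was 35.4 to 39.0 FPKM in the control and 87.3 to 117 FPKM with EGCG in BAT D4 (4 called higher and 1 lower), and 65.8 to 66.5 FPKM against 148 to 158 FPKM in BAT D8 (4 higher and 2 lower). In WAT D8 it was 57.2 to 97.7 FPKM in the control and 116 to 141 FPKM with EGCG and the rescaled library (54.9 FPKM deposited; 4 higher and 2 lower). In WAT D4 it was 63.4 to 68.8 FPKM in the control and 56.5 to 70.5 FPKM with EGCG, so it overlapped (2 higher and 0 lower). Sox10, the factor that defines these glia, was called higher in all 4 comparisons, from 1.07 to 1.26. Of 9 skeletal muscle markers 4 were tested. In WAT D4, where Cryab was higher too, 3 of the 4 were called higher: Myog, a factor of muscle differentiation, from 2.00 to 7.24 FPKM (1.46), Tnnt3 (0.68) and Acta1 (0.63). Myog was called higher and Myh1 lower in WAT D8, 0 were called in BAT D4, and Myh1 and Tnnt3 were called lower in BAT D8. The summed level was 46.6 to 50.0 FPKM in the control and 73.7 to 79.1 FPKM with EGCG in WAT D4, and the groups overlapped in BAT D4 (10.8 to 16.5 and 14.7 to 20.0 FPKM). The other 5, Myod1, Ckm, Myh4, Pax7 and Myf5, stayed below the filter, with Pax7 and Myf5, which mark muscle precursors, at or below 0.0140 and 0.149 FPKM in every group mean. Of 5 endothelial markers 4 were tested and 3, 3, 4 and 4 were called higher in WAT D4, WAT D8, BAT D4 and BAT D8. Of 5 macrophage markers 4 were tested, with 3 called higher in each day 4 comparison and 4 lower in each day 8 comparison. Of 5 pericyte markers 1 was called higher in WAT on either day, 2 higher and 2 lower in BAT D4, and 1 higher and 2 lower in BAT D8. Beside these marker counts, the shares of all genes called higher and lower were 34.4% and 19.3% in WAT D4, and 27.9% and 20.6% in BAT D4. Those of day 8 were 44.7% and 18.9% in WAT, and 46.5% and 26.1% in BAT. The part of these cell types in the Cryab result was not tested.

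From day 4 to day 8 Cryab and Hspb1 rose in the controls while the Hsp90 genes, Hspa8 and Hsph1 fell, and with EGCG fewer genes fell. In WAT control 4 of the 10 genes were called higher on day 8 and 5 lower, where 61.0% of all genes tested were called (27.7% higher and 33.2% lower), and in BAT control 4 higher and 4 lower, against 69.2% (28.7% and 40.4%). With EGCG it was 6 higher and 2 lower in WAT, against 59.5% (31.8% and 27.7%), and 6 higher and 1 lower in BAT, against 58.0% (29.7% and 28.2%). Cryab is included in these day counts. Its levels in the same groups entered the EGCG change that chose the set, so its calls and p-values by day are not independent of that choice. Cryab rose from 16.4 ± 1.40 to 95.6 ± 33.8 FPKM in WAT control (SD, n = 2), a change of 2.43 ± 0.18 (limma adjusted p = 4e-07), and from 18.1 ± 2.42 to 118 ± 4.85 FPKM in BAT control, a change of 2.64 ± 0.18 (adjusted p = 1.1e-07). With EGCG its rise was 1.38 ± 0.18 in WAT and 1.02 ± 0.18 in BAT, and the day 4 and day 8 libraries of each of these 4 comparisons did not overlap once the WAT D8 library was rescaled. Hspb1 was called higher in all 4, by 1.20, 1.50, 1.44 and 0.58 in WAT control, WAT EGCG, BAT control and BAT EGCG (SE 0.21), but the call in BAT EGCG was lost when any 1 of its 4 libraries was left out.

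Hspa8, Hsp90aa1, Hsp90ab1 and Hsph1 were called lower on day 8 in both controls. Hsph1 fell most of these, by 1.11 on the log2 scale in WAT control and by 1.04 in BAT control, and was called lower with EGCG too (-0.94 in WAT and -0.82 in BAT). Hsp90ab1 changed by -0.75 and -0.76 in the WAT and BAT controls and did not pass the test with EGCG (-0.09 and 0.06). Hspa8 changed by -0.45 and -0.70 in the controls and by 0.43 and 0.00 with EGCG, the last of which did not pass. Hspa1b was called higher with EGCG in both depots (0.82 in WAT and 1.56 in BAT), higher in BAT control (0.43, not called without replicate 2 of either day) and not in WAT control (0.01).

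**Figure D4:**
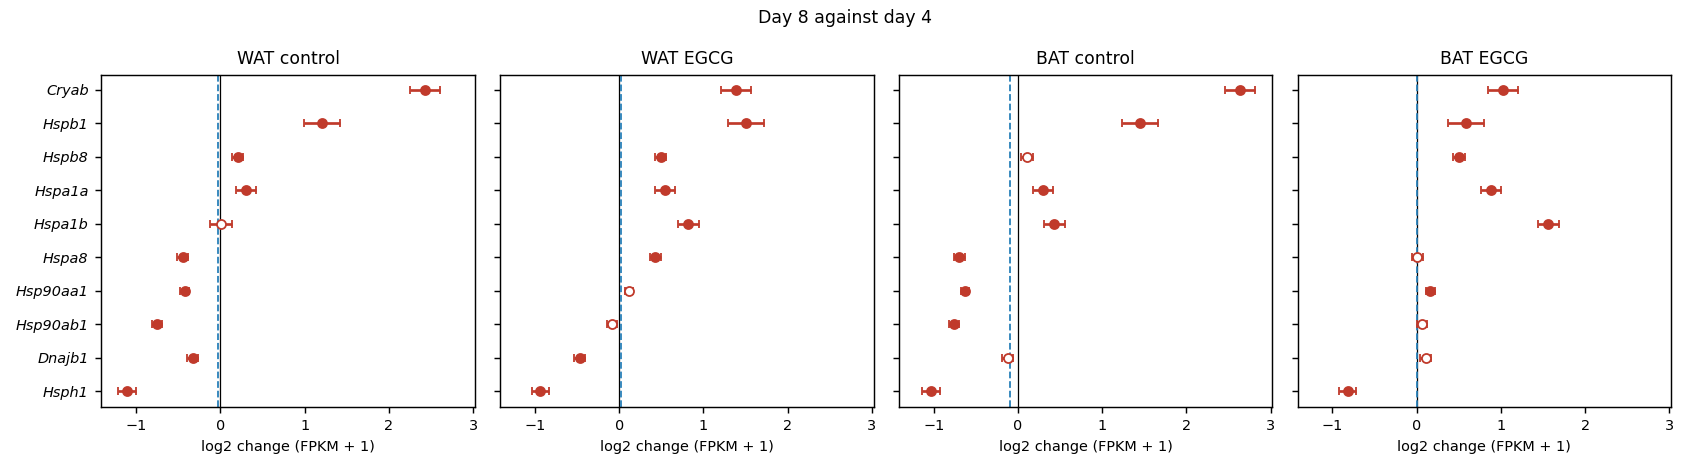
Change from day 4 to day 8, as the difference of log2(FPKM + 1) ± SE from replicates 1 and 2, in control and EGCG cells of each depot for the 10 genes. Filled points passed the test, open points did not and the dashed line is the median of all genes. Cryab lies at 2.43 and 2.64 in the controls and at 1.38 and 1.02 with EGCG, and Hsph1 lies below 0 in all 4.

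Between depots Hspa1b differed most. In the day 4 controls 4 of the 10 genes were called higher in BAT and 2 lower, where 55.8% of all genes were called (41.4% higher and 14.4% lower), and in the day 8 controls 2 higher and 2 lower, where 53.6% were (31.6% and 22.0%). The day 4 count of 6 was 3 to 4 with any 1 library left out and 3 with no filter on low levels or either other scaling, and the calls of Hspb1 and Hsph1 were lost in each of the 4 fits with a library less. Hspa1b was lower in BAT than in WAT controls, by -1.75 ± 0.13 on day 4 (limma adjusted p = 9.7e-07) and -1.32 ± 0.13 on day 8 (adjusted p = 4.5e-06), with no overlap of the 3 libraries a group. Hspa1a differed by -0.71 and -0.72. The difference of Hspb1 was 0.60 ± 0.21 on day 4, a call that no such fit kept, and 0.85 ± 0.21 on day 8, the latter 0.39 without WAT D8 control replicate 1. Cryab did not pass the test on either day (0.13 ± 0.18 and 0.34 ± 0.18).

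The EGCG change itself was compared between depots and days for the 9 genes other than Cryab, and the single values are given further on. The BAT minus WAT difference was called higher for 2 and lower for 2 on day 4, where 28.1% of all genes were called (12.0% higher and 16.1% lower), and higher for 3 and lower for 1 on day 8, where 39.2% were (19.4% and 19.7%). The day 8 minus day 4 difference was called higher for 5 and lower for 0 in WAT, against 49.4% (29.7% and 19.7%), and higher for 6 and lower for 1 in BAT, against 55.4% (34.7% and 20.6%). The gene called lower there was Hspb1, whose change of 1.35 in BAT D4 was followed by 0.49 in BAT D8, and this call was lost in 7 of 8 fits with 1 library left out.

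Genes with the pattern most like Cryab were sought among the 9736 genes with a mean of at least 5 FPKM in some group, by Pearson r over the 16 libraries of replicates 1 and 2. They were Npr2 (a natriuretic peptide receptor, r = 0.976), Edn1 (endothelin 1, r = 0.976), Gltp (a glycolipid carrier, r = 0.972), Stat6 (r = 0.968) and Il10rb (r = 0.965). This ranking uses the EGCG values of Cryab that chose the set, so it is a description only. Npr2 went from 2.92 to 7.71 FPKM with EGCG in WAT D4 and from 4.11 to 12.6 FPKM in BAT D4. For Hsph1 the gene most like it was another Hsp70 relative, Hspa14 (r = 0.973). Over the same libraries the correlation of Cryab was 0.92 with Hspb1, 0.66 with Hspb8, 0.50 with Hspa1a and 0.31 with Hsp90aa1. It was 0.28 with Dnajb1, 0.27 with Hspa1b, -0.27 with Hsph1, -0.30 with Hsp90ab1 and -0.35 with Hspa8.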

How the data were processed

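RNA was measured in 24 libraries, 3 in each of 8 groups. The authors deposited FPKM values per gene, with the gene length in bases, in 2 tables (replicates 1 and 2, and replicate 3) that were scaled separately. The submitters' processing notes name FastQC 0.11.9, HISAT2 2.2.0, HTSeq 0.11 and the build mm9, and annotation, strand and multi-mapped reads are not given in the sources used here. Gene names came from GENCODE vM1, which matched all 37310 genes, and all gene lengths equalled the longest transcript. Reads per gene were recovered from the FPKM steps (whole to within 0.01 read).

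Genes at 1 FPKM or more in at least 2 of the 16 libraries of replicates 1 and 2 were kept (14095; 26587 with no filter). limma 3.58.1 in R 4.3.3 was fitted to log2(FPKM + 1) of these libraries with a mean for each group and a trended prior (8 residual degrees of freedom, 11.37 with the prior). The 14 contrasts were two-sided, with Benjamini-Hochberg adjustment over all genes tested in each. Fold changes on this scale understate those of low genes. Replicate 3 was used for direction and in alternatives. The procedure was tested on simulated data. All 10 genes of the set were named by their symbols, and other genes by their lists. The genes and lists were chosen with earlier results of these data known. Alternatives were another pseudocount (0.1), no filter, median-ratio and quantile scaling, limma-voom on recovered reads, a replicate block, both tables together and each library left out; fits of both tables less the WAT day 8 EGCG library of replicate 3, or with it rescaled, were chosen after seeing the data.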

Additional observations from a re-analysis of the deposited data

Results flagged for a closer look

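The EGCG change of 9 genes (Cryab apart) was compared between depots and days, by the limma test of the difference itself. A difference passed for 20 of these values, given here as log2 differences with their adjusted p.

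On day 4 the BAT change exceeded the WAT change for Hspa1b by 1.26 (adjusted p = 0.000404) and for Hspa8 by 0.46 (adjusted p = 0.00349), and the BAT minus WAT difference was -0.39 for Hspb8 (adjusted p = 0.0111) and -0.32 for Dnajb1 (adjusted p = 0.0257), where 28.1% of all genes tested differed. On day 8 the BAT minus WAT difference was 1.57 for Hspa1b (adjusted p = 4.57e-05), 0.78 for Hspa1a (adjusted p = 0.00323), 0.29 for Hspa8 (adjusted p = 0.0258) and -0.28 for Hspb8 (adjusted p = 0.0357), where 39.2% of all genes differed. Hspa1b was thus the gene whose response differed between depots on both days by the widest margin of the 9.

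In WAT the day 8 change less the day 4 change was 0.87 for Hspa8 (adjusted p = 1.77e-05), 0.82 for Hspa1b (adjusted p = 0.00281), 0.67 for Hsp90ab1 (adjusted p = 5.21e-05), 0.54 for Hsp90aa1 (adjusted p = 0.000114) and 0.29 for Hspb8 (adjusted p = 0.027), where 49.4% of all genes differed. In BAT it was 1.13 for Hspa1b (adjusted p = 0.000232), 0.82 for Hsp90ab1 (adjusted p = 7.2e-06), 0.79 for Hsp90aa1 (adjusted p = 4.47e-06), 0.70 for Hspa8 (adjusted p = 5.3e-05), 0.58 for Hspa1a (adjusted p = 0.0115) and 0.40 for Hspb8 (adjusted p = 0.00432), where 55.4% differed. Hspb1 went the other way in BAT, at -0.86 (adjusted p = 0.03).

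Some of these calls rested on single libraries. Of the 8 fits with 1 library left out, the call was lost in 7 for Hspb1 by day in BAT (all but that without BAT D8 control replicate 1). It was lost in 5 for Hspb8 by day in WAT, for Hspb8 by depot on day 8 and for Hspa8 by depot on day 8, in each case without either WAT D8 EGCG replicate. The other 3 libraries were WAT D4 control replicate 1, WAT D8 control replicate 1 and WAT D4 EGCG replicate 2 for the first, WAT D8 control replicate 1, BAT D8 EGCG replicate 1 and BAT D8 control replicate 2 for the second, and BAT D8 control replicate 1, WAT D8 control replicate 2 and BAT D8 EGCG replicate 2 for Hspa8. The call was lost in 4 for Dnajb1 by depot on day 4 (WAT D4 replicate 1 and BAT D4 replicate 2 of both treatments) and in 2 for Hspa1a by day in BAT (BAT D8 control replicate 1 and BAT D4 EGCG replicate 2).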

How the results depend on the processing

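Of 140 log2 values, 138 kept direction and side of the threshold with a pseudocount of 0.1, 135 on recovered reads, 133 with a replicate block, 126 with no filter and 122 with either median-ratio or quantile scaling. With both tables together, which adds the library with few reads outside 5 genes, 84 did and 4 reversed. Counts of called genes then became 5, 0 and 1 for EGCG in WAT day 4, WAT day 8 and BAT day 4, 4, 5 and 4 for day in WAT control, WAT EGCG and BAT EGCG, 2 for depot on day 4, and 1, 2, 0 and 1 for the differences in EGCG change (BAT minus WAT on day 4 and day 8, day 8 minus day 4 in WAT and BAT). Without that library the BAT minus WAT count on day 4 was 8, and 7 with it rescaled. The depot count on day 4 was 3 with no filter, either scaling or the replicate block, and the BAT minus WAT count on day 8 was 2 with no filter.

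Reversed values were those of Hspa8 with EGCG in WAT day 8 (-0.026 with median-ratio scaling and -0.28 with both tables) and, with both tables, of Hspa8 by day in WAT EGCG (-0.027) and of Hspb8 in the BAT minus WAT difference on day 8 (0.19) and the day difference in WAT (-0.14). With 1 library left out, counts were 6 to 7, 6 to 7, 3 to 6 and 8 to 8 for EGCG, 7 to 8, 8 to 8, 6 to 8 and 5 to 6 for day, 3 to 4 and 4 to 5 for depot, and 3 to 4, 2 to 5, 4 to 7 and 5 to 7 for the differences. The low counts came without BAT day 4 control replicate 2 (EGCG, 3), without that or WAT day 4 control replicate 2 (depot, 3) and without either WAT day 8 EGCG replicate (difference, 2). The replicate 1 minus 2 deviations of EGCG and control correlated at 0.081, -0.023, 0.0095 and 0.010 in WAT D4, WAT D8, BAT D4 and BAT D8. No large shift shared by replicate number was seen, but a single difference per group cannot show whether samples were paired. Causes of these shifts were not tested.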
